A study of Mus musculus with 703 samples.

Results

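The genes described here are the slow-fibre contractile genes of skeletal muscle, 10 of the 19088 genes measured in mouse gastrocnemius. They were chosen by symbol: Myh7, Myl2, Myl3, Tnnt1, Tnni1, Tnnc1, Atp2a2, Myh7b, Casq2 and Tpm3. A muscle fibre is slow or fast according to the myosin heavy chain it makes. The slow heavy chain is made from Myh7, and the fast ones are made from Myh2, Myh1 and Myh4. The rest of the contractile apparatus comes in matching slow and fast forms: light chains on the myosin head, troponins and tropomyosin on the thin filament, and the calcium pump and calcium store of the sarcoplasmic reticulum. Slow fibres are rich in mitochondria and resist fatigue. The mouse gastrocnemius is a mostly fast muscle, so its slow genes are read against a large excess of fast ones.

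The study sequenced polyadenylated RNA from the gastrocnemius of 352 female and 351 male mice, with 1 library per animal. The mice belonged to 20 CC-RIX strains, each the F1 offspring of a pair of inbred Collaborative Cross lines. Both sexes were fed a diet with 10% or 44% fat from week 6, with added fibre in both diets per the labels, and some animals drank metformin at 5 mg/mL from month 7. The study describes its 2 diets as high in fat and sugar and as a control, so the diet comparison is not of fat alone. Cohorts of 6 and 12 months were planned, but the labels give no animal's age, and metformin and age cannot be told apart in these libraries. Untreated animals were 236 females and 233 males, of which 234 were on 10% fat and 235 on 44% fat. Metformin-treated animals were 57 females and 59 males on 10% fat, and 59 females and 59 males on 44% fat. All were hybrid F1 animals with no transgene or deletion named in the labels, and a strain's animals share 1 pair of parental lines. The sequencing identifiers formed 2 ranges, the lower holding 544 libraries and the upper 159, and the range was used as the batch.

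Total counts per library had a median of 47.9 M and lay between 27.4 M and 96.1 M (M, mega). The tissue label was checked against marker genes. Acta1, skeletal actin, had a median of 21600 CPM (counts-per-million, on TMM-normalised library sizes) and Myh4 of 59500 CPM, and neither fell below 12600 CPM in any library. Several slow genes are also expressed in heart. Of 8 cardiac markers, 6 were not among the 19088 genes measured, each of which had a count in at least 50.1% of libraries. Of the 2 that were, Tnni3, cardiac troponin I, did not exceed 0.413 CPM. Myh6, the other cardiac marker, ran from 0.426 to 42.8 CPM. Expression went against the sex label in 15 libraries and against the strain label in 4, and liver genes summed to more than 100 CPM in 37. These libraries were kept. The fits of sex, diet, strain and metformin and the differences of the Myh7 share were also computed without each of these sets, and the interactions without the libraries against their labels.

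Promoters are shown for the 4 members whose window held a match to a MEF2 box, a CArG box or the TEAD motif CATTCC, which muscle transcription factors bind. Windows of 300 bases around the start sites of 9 members were found in RefSeq (GRCm38.p6), 13 windows in all. The motifs searched were the MEF2 box and the SRF CArG box, by their consensus, the TEAD motif CATTCC on both strands, the E-box CANNTG, which reads the same on either strand, and TATAAA on the sense strand. In the sequences that follow, capitals mark matches to any of these except the E-box.
Casq2, chr3:102086165-102086464, + strand: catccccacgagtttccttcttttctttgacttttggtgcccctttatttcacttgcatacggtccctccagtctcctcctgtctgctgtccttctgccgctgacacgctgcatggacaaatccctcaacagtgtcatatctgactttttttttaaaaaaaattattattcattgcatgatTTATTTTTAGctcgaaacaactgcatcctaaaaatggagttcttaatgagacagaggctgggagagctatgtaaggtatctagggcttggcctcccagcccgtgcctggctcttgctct
Myl3, chr9:110763428-110763727, + strand: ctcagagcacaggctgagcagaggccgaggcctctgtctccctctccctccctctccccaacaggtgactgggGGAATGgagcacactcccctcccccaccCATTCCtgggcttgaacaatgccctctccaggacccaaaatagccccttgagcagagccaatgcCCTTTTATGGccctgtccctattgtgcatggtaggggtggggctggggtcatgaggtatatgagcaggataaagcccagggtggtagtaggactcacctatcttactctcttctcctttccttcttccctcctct
Tnnc1, chr14:31208062-31208361, + strand: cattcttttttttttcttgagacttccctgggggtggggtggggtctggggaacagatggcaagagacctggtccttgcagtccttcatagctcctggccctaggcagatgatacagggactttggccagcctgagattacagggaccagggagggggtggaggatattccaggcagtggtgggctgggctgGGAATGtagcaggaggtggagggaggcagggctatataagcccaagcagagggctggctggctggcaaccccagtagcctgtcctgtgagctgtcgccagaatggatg
Myh7, chr14:54994577-54994876, - strand: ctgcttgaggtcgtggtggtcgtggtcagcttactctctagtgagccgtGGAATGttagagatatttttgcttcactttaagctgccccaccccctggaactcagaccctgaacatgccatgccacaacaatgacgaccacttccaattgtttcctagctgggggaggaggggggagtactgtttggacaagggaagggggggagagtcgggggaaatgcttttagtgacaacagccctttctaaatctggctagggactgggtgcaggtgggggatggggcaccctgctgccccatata
CATTCC was present in 3 of the 13 windows, those of Myl3, Tnnc1 and Myh7, and in 14.7% of all 32851 RefSeq windows of this length. A MEF2 box was found in the Casq2 window alone, against 3.19% of all windows. The CArG box was found in the Myl3 window alone, against 1.63%. TATAAA was present in the Tnnt1 window and in 8.32% of all windows. The E-box was present in all 13 windows and in 72.3% of all windows. These matches describe the letters of the windows only.

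Per kilobase of its longest transcript, Myl2, the slow regulatory light chain, had the highest median level of the members at 166 CPM per kb. It was followed by Tnnt1 (slow troponin T, 139 CPM per kb), Myl3 (slow essential light chain, 128), Myh7 and Tnnc1 (slow troponin C), Atp2a2 (the slow calcium pump SERCA2, 97.9), Tpm3 (slow tropomyosin, 70.8) and Tnni1 (slow troponin I, 57.4). Casq2, the calcium-binding protein of the slow and cardiac calcium store, had a median of 8.49 CPM per kb. The lowest was Myh7b, a little-used relative of the slow heavy chain, at 0.941 CPM per kb. The 11 fast genes on the same scale were all above the members. Myh2, Myh1 and Casq1 were the nearest, at 372, 683 and 935 CPM per kb, and the other fast genes had at least 3470. Myh4, the fastest heavy chain, had 9890 CPM per kb, and Tnnt3, fast troponin T, had 10500. Across all animals, Myh7 (ENSMUSG00000053093, chromosome 14, 54970688 to 54994634, GRCm38) had the widest range, from 68.9 to 1980 CPM, or 28.8-fold. Atp2a2 (ENSMUSG00000029467, chromosome 5, 122453513 to 122502225) had the narrowest, from 151 to 1000 CPM, or 6.64-fold. The lowest Myh7 level was that of a male on 44% fat in (CC019/TauUncJ x CC042/GeniUncJ)F1. In untreated animals of this strain, Myl2 stayed at or above 81.8 CPM and Tnnc1 at or above 48.6 CPM. Myh4 fell as low as 18700 CPM in some library. Whether long transcripts in general were low in the library with the lowest Myh7 level was not tested.

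Fibre-type share was measured as Myh7 counts in percent of Myh7, Myh2, Myh1 and Myh4 counts. These heavy chain transcripts are of nearly equal length (6016 to 6230 nucleotides), so counts could be compared directly. In bulk tissue, fewer slow fibres and less slow RNA per fibre cannot be told apart. The share had a median of 1.1% over all animals and ran from 0.257% to 3.2%, a 12.4-fold range. Myh7 counts were at least 3231 in every library, so counting error on a share was at most 3.45% of its value (95% interval). The groups were ordered by sex. Untreated females on 10% fat had a median of 1.43% (0.674% to 2.81%), and those on 44% fat had 1.39% (0.706% to 3.14%). Untreated males had 0.763% on 10% fat (0.289% to 1.49%) and 0.780% on 44% fat (0.257% to 1.79%). With metformin the medians were 1.46% and 1.42% in females and 0.740% and 0.741% in males, on 10% and 44% fat. The ranges of all groups overlapped, and between groups of the same sex the medians differed by less than a quartile range.

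**Figure D1:**
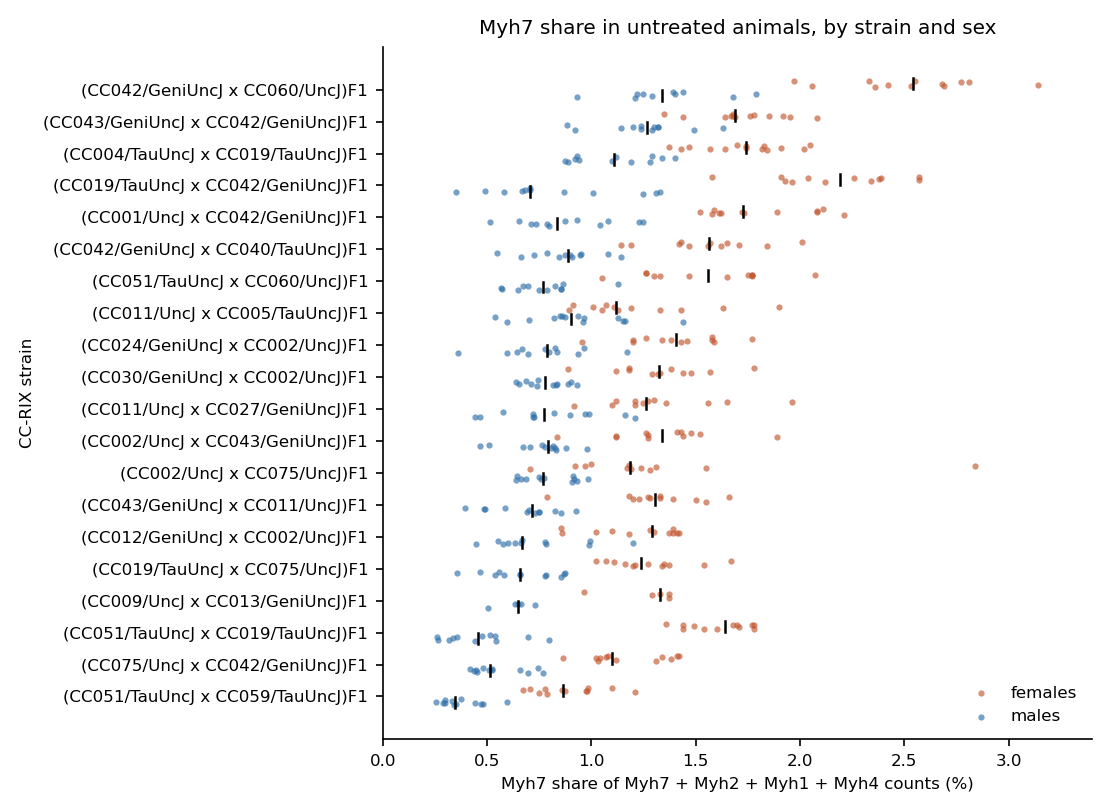
Myh7 counts in percent of Myh7, Myh2, Myh1 and Myh4 counts (x axis) in each of 236 untreated females and 233 untreated males, by strain (y axis, ordered by strain mean) and sex. Points are animals and black ticks are medians. Females lie above males in all 20 strains, the sexes do not overlap in 9, and strain medians run from 0.634% at the bottom to 2.02% at the top.

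The comparison of the sexes in untreated animals asked whether females and males differ in slow-fibre expression. All 10 members were lower in males, where 37% of the 16384 genes tested were lower, 30.1% were higher and 67.1% differed in either direction. The median log2 fold change of the members was -0.595, against -0.018 over all genes. Every member was lower in males within each of the 20 strains.

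Myh7 showed the largest difference. It ran from 426 to 1980 CPM in 236 females with a median of 906, and from 68.9 to 1090 CPM in 233 males with a median of 527. Its log2 fold change was -0.84 ± 0.034 (SE), so that females had 1.79-fold more (adjusted p = 5.38e-83). Of the thin-filament genes, Tnni1 ran from 37 to 180 CPM in females (median 82.7), had a median of 49.6 CPM in males with a lowest value of 14.9 CPM, and its log2 fold change was -0.73 ± 0.030. Tnnc1 followed at -0.70 ± 0.029, Tnnt1 at -0.66 ± 0.028 and Tpm3 at -0.57 ± 0.026. The troponins thus followed Myh7 most closely in the size of the difference. Myl2, close to Tpm3, had a log2 fold change of -0.60 ± 0.029 and Myl3 of -0.45 ± 0.028, the smallest among the members. In the sarcoplasmic reticulum, Atp2a2 fell by 0.52 ± 0.024 and Casq2 by 0.46 ± 0.036 on the log2 scale. Myh7b fell by 0.59 ± 0.039.

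The share of Myh7 differed between the sexes as well. Compared within strain, diet and identifier range, the log2 ratio of Myh7 to the 3 fast heavy chains was 0.93 ± 0.029 (SE) lower in males than in females (225 and 230 animals), a change of -47.6%. The two-sided permutation p was 1e-05, the smallest that 100000 resamples can give, and 3e-05 after adjustment over 3 such comparisons. Among the heavy chains, the median share of Myh2 was 3.82% in females and 3.14% in males, that of Myh1 was 7.03% and 5.90%, and that of Myh4 was 87.7% and 90.2%. Of these medians, those of Myh7, Myh2 and Myh1 were lower in males and that of Myh4 was higher. Of 15 fast counterparts, 11 were higher and 4 lower in males, with a median log2 fold change of 0.10. Those with the largest differences were Myl1, the fast essential light chain (0.28 ± 0.016), Tnni2, fast troponin I (0.25 ± 0.017), and Myh2, the intermediate heavy chain (-0.25 ± 0.034).

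Pairs of slow and fast forms of the same protein gave a second view of the share, as slow counts in percent of slow plus fast counts. Tnni1 made up a median of 2.59% of the troponin I pair in females and 1.35% in males. For troponin C the medians were 2.57% and 1.46%, and for troponin T they were 1.75% and 0.981%. Myl2 had 3.86% against Mylpf in females and 2.43% in males, and Myl3 had 2.60% and 1.67% against Myl1. Tpm3 had 2.06% and 1.24% against Tpm1, Atp2a2 had 1.68% and 1.2% against Atp2a1, and Casq2 had 1.48% and 1.04% against Casq1. In each pair the median was higher in females, and the ranges of the sexes overlapped. Counts were per gene, so forms made from the same gene were not separated. No test was made on these pairs.

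Beyond the members, 10 other genes of slow fibres were examined, among them Sln, which encodes an inhibitor of the calcium pump, and Mybpc1, the slow myosin-binding protein C. Of these, 6 were lower and 1 higher in males, and their median log2 fold change was -0.22. Sln was at -0.69 ± 0.091, Myl6b at -0.48 ± 0.036 and Mybpc1 at -0.46 ± 0.020. Sln and Myl6b were low, with medians of 0.792 and 5.69 CPM over all animals, against 1440 CPM for Mybpc1. Of 16 regulators of fibre type, 9 were higher and 5 lower in males. Vgll2, a cofactor of TEAD factors, was lower in males (-0.39 ± 0.034), as was Ppp3ca, a catalytic subunit of calcineurin (-0.30 ± 0.011). Tead1 itself was higher in males (0.28 ± 0.021). Marker genes of other cells moved with sex as well. All 5 adipocyte markers were lower in males, with a median log2 fold change of -0.47, and their summed level ran from 10.4 to 459 CPM in females and from 7.57 to 454 CPM in males, with a 1.7-fold higher median in females (60.5 CPM in males). Of 4 tendon markers 3 were lower in males, with summed medians of 213 and 170 CPM. Of 4 tested genes of developing muscle 3 were lower in males, with summed medians of 17.9 and 12.2 CPM. Myh6 was lower in males too (-0.68 on the log2 scale). Myh6 and Tnni3, the cardiac markers measured, had summed medians of 11.1 CPM in females and 6.41 CPM in males. Of these, Tnni3 had a median of 0.0461 CPM over all libraries. The part of these cells in the difference of the members was not tested.

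**Figure D2:**
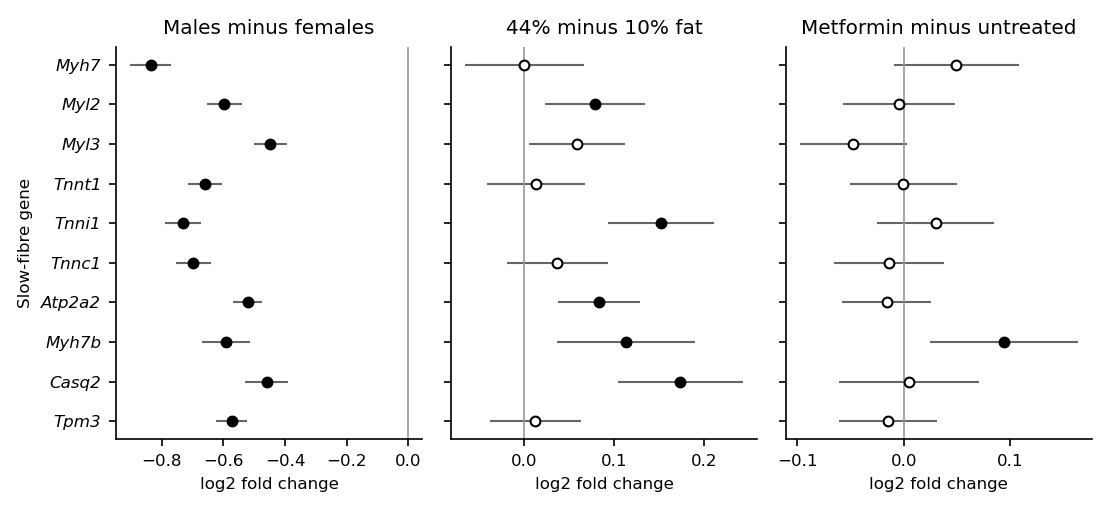
Log2 fold changes of the 10 slow-fibre genes from edgeR (x axis, a different scale in each panel) for males minus females and 44% minus 10% fat in untreated animals, and for metformin minus untreated in all animals. Lines are 95% intervals and filled points passed an adjusted p of 0.05: all 10 in the first panel, 5 in the second and Myh7b alone in the third.

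The size of the sex difference depended on strain. The interaction of sex and strain was called for all 10 members, in a test that called 34.1% of 16384 genes, with adjusted p from 4.33e-10 for Tnnc1 to 0.00103 for Myh7b. It was called for all 10 also within the lower identifier range and without the libraries against their labels. These fits called 5150 of 16348 and 5668 of 16372 genes. The strains at the ends were (CC051/TauUncJ x CC019/TauUncJ)F1 and (CC011/UncJ x CC005/TauUncJ)F1. In the former, the Myh7 share of 12 females ran from 1.36% to 1.78% (median 1.64%) and that of 12 males from 0.259% to 0.795% (median 0.458%), with no overlap and a 3.72-fold higher ratio in females. In the latter, 12 females ran from 0.895% to 1.90% (median 1.12%) and 14 males from 0.540% to 1.44% (median 0.904%), with overlap and a 1.34-fold higher ratio. This strain held 5 libraries that went against their sex label, and without them its ratio was 1.54-fold higher in females. The next smallest difference, 1.40-fold, was in (CC043/GeniUncJ x CC042/GeniUncJ)F1, where no untreated library went against its sex label. The sexes did not overlap in 9 of the 20 strains.

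The other members followed a similar order. Over the 10 members, the median fold of females over males was 2.44 in (CC051/TauUncJ x CC019/TauUncJ)F1 (1.91 to 3.2) and 2.01 in (CC019/TauUncJ x CC042/GeniUncJ)F1 (1.82 to 2.90). It was 1.27 in (CC043/GeniUncJ x CC042/GeniUncJ)F1 (1.14 to 1.41) and 1.18 in (CC011/UncJ x CC005/TauUncJ)F1 (1.07 to 1.30). Casq2 departed from this order. Its fold was highest in (CC051/TauUncJ x CC060/UncJ)F1, at 2.1, and lowest in (CC012/GeniUncJ x CC002/UncJ)F1, at 1.05. Myh7b had its lowest fold in (CC002/UncJ x CC075/UncJ)F1, at 1.16, against 1.19 in (CC011/UncJ x CC005/TauUncJ)F1. The folds of (CC011/UncJ x CC005/TauUncJ)F1 include its 5 libraries that went against their sex label, and were not computed without them. All members were measured in the same animals, so their folds within a strain are not independent.

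**Figure D3:**
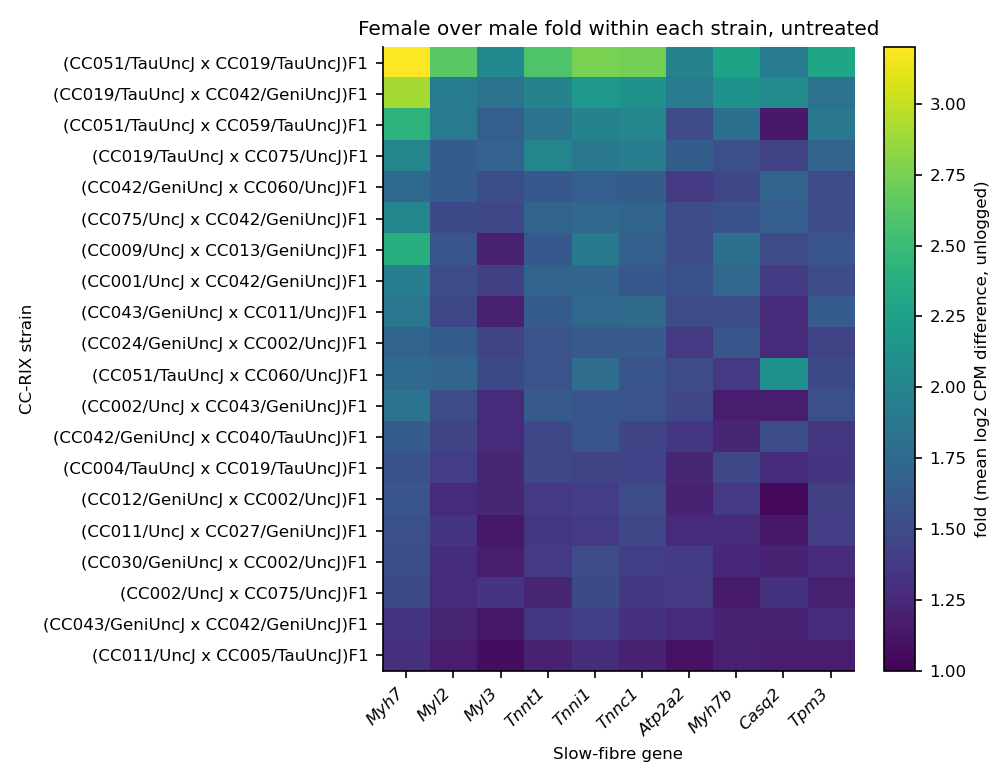
Fold of females over males (colour, from mean differences of log2 CPM within diet and identifier range) for each slow-fibre gene (x axis) in each strain (y axis, ordered by the median over the genes) in untreated animals. The top strain, (CC051/TauUncJ x CC019/TauUncJ)F1, has folds of 1.91 to 3.2 and the bottom one, (CC011/UncJ x CC005/TauUncJ)F1, has 1.07 to 1.30. The bottom strain includes 5 libraries that go against their sex label.

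Strains were compared to ask how far slow-fibre expression follows genetic background. All 10 members differed between strains, as did 95.4% of all genes tested, so the count itself does not set them apart. For Myh7 the strain medians ran from 434 CPM in (CC051/TauUncJ x CC059/TauUncJ)F1 to 1230 CPM in (CC042/GeniUncJ x CC060/UncJ)F1, a 2.83-fold range. Tnnc1 had a 2.76-fold range (47.9 to 132 CPM), Tnni1 2.62-fold (42 to 110 CPM) and Tpm3 2.41-fold (91.6 to 221 CPM). For Atp2a2, Tnnt1 and Myh7b the range was 2.18-fold, 2.20-fold and 2.03-fold. The narrowest ranges were those of Myl2 (1.96-fold), Myl3 (1.94-fold) and Casq2 (1.90-fold). The strain lowest for Myh7 was lowest for all members but Myl2 and Casq2, and the strain highest for Myh7 was highest for all but Myl3, Myh7b and Casq2. In the 69 animals of the upper range alone, 9 members differed between strains, as did 9149 of 16600 genes.

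The Myh7 share in (CC042/GeniUncJ x CC060/UncJ)F1 had a median of 2.54% in 12 females (1.97% to 3.14%) and 1.34% in 10 males (0.933% to 1.79%). At the other end, (CC051/TauUncJ x CC059/TauUncJ)F1 had 0.867% in 12 females (0.674% to 1.21%) and 0.346% in 12 males (0.257% to 0.594%). Between these, the order was gradual. Of 190 pairs of strains, 59.5% differed in the log2 ratio (permutation within sex and diet, adjusted p under 0.05) and 77 did not pass the test. Of the 19 neighbours in the order of strain means, 2 differed: the lowest strain from the next, by 0.49 ± 0.088 (SE, adjusted p = 2.88e-05, permutation), and the highest from the one before it, by 0.34 ± 0.062 (adjusted p = 2.88e-05, permutation). For the other 17 neighbours the adjusted permutation p was at least 0.212. CC042/GeniUncJ is a parent of 6 strains, and 5 of these were among the 6 strains with the highest means. The other one, (CC075/UncJ x CC042/GeniUncJ)F1, was the second lowest, with a median of 1.1% in females and 0.515% in males. This grouping was noticed in the data and was not tested.

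The order of strains was compared between separate sets of animals. Over 20 strain means of the log2 ratio, untreated and metformin-treated animals correlated with Pearson's r = 0.948 (permutation p = 1e-05, adjusted over 3 relations 1.5e-05) and Spearman's rho = 0.895 (permutation p = 1e-05). Without the 2 strains farthest from the median, r was 0.870. Among untreated animals, those on 10% and 44% fat correlated with r = 0.931 (permutation p = 1e-05, adjusted 1.5e-05) and rho = 0.871, and with r = 0.864 without the 2 farthest strains. Females and males correlated with r = 0.666 (permutation p = 0.0018, adjusted 0.0018) and rho = 0.555 (permutation p = 0.0121). Without the 2 farthest strains this r was 0.626. (CC019/TauUncJ x CC042/GeniUncJ)F1 shows the departure, with a female median of 2.19%, above all strains but one, and a male median of 0.707%. The latter lies under the median of 0.778% over all untreated males. It pools 6 males on 10% fat, with a median of 1.13% (0.683% to 1.33%), and 6 on 44% fat, with 0.626% (0.351% to 0.871%). Only those on 44% fat had a median under that of all males. Within the lower range alone, the relation of untreated and treated animals was r = 0.886 and rho = 0.705 over 14 strains. Without the 2 farthest strains this r was 0.745.

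**Figure D4:**
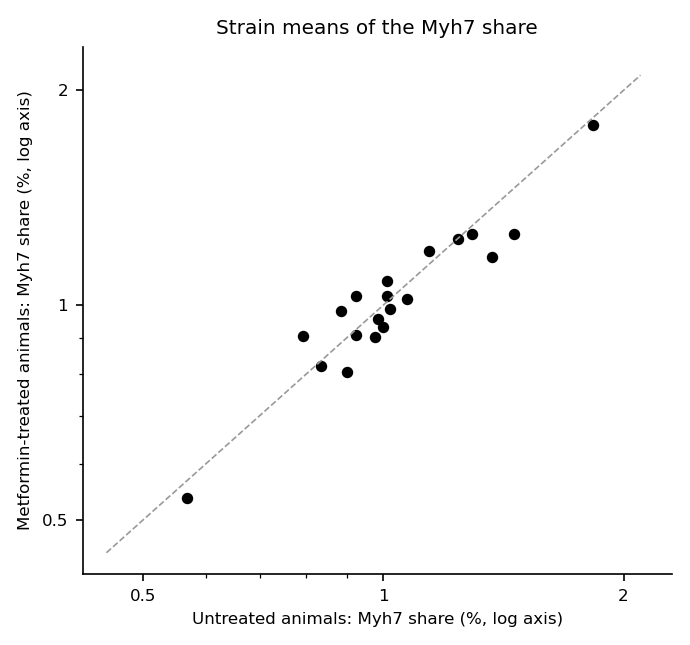
Mean Myh7 share of each of 20 strains in metformin-treated animals (y axis) against untreated animals (x axis), both in percent on log axes. Means are of the log2 ratio, weighted equally over sexes and diets, and the dashed line marks equality. The strains keep close to the line, with r = 0.948.

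Individual members did not order the strains alike. Across the 20 strain medians, the rank correlation with Myh7, given here as a description, was 0.932 for Tnnc1, 0.782 for Tpm3 and 0.765 for Tnni1. It was 0.71 for both Atp2a2 and Myh7b, 0.585 for Casq2, 0.577 for Tnnt1 and 0.562 for Myl2, and lowest for Myl3, at 0.415. The points share libraries, so errors of a library enter both sides. (CC043/GeniUncJ x CC011/UncJ)F1 was the strain with the highest Myl3 median, 168 CPM, and ranked 3 from the lowest for Myh7.

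Diet was compared in untreated animals, to ask whether a diet with 44% fat changes slow-fibre expression. The Myh7 share did not show a difference. Within strain, sex and identifier range, the log2 ratio was 0.016 ± 0.029 (SE) higher on 44% fat (228 and 227 animals, two-sided permutation p = 0.585, adjusted 0.878), with a 95% interval from -0.040 to 0.072. Myh7 itself had a log2 fold change of -0.0003 ± 0.034. In each of the other pairs of slow and fast forms, the median slow share over both sexes was higher on 44% fat. On 10% and 44% fat it was 1.17% and 1.32% for Casq2, 1.85% and 2.01% for Tnni1, and 1.56% and 1.57% for Tpm3. In females alone, the medians of Tnnc1 (2.62% and 2.56%) and Atp2a2 (1.7% and 1.66%) were lower on 44% fat. The ranges overlapped, and the diet difference of these pairs was not tested.

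Of the 10 members, 5 were called for diet, all higher on 44% fat, where 20.3% of genes were called and 10.1% were called higher. Casq2 was highest, at 0.17 ± 0.036 (adjusted p = 3.53e-05). On 10% fat it had medians of 24 CPM in females (10.5 to 42.9) and 16.8 CPM in males (6.95 to 40.8). On 44% fat the medians were 27 CPM (12.7 to 61.2) and 19.8 CPM (7.53 to 52.3). The groups overlapped over most of their range, and the difference was positive in 17 of 20 strains. Tnni1 was at 0.15 ± 0.030 (adjusted p = 1.57e-05, positive in 18 strains) and Myh7b at 0.11 ± 0.039 (adjusted p = 0.025, positive in 12). Atp2a2 was at 0.083 ± 0.024 (adjusted p = 0.0045, positive in 16) and Myl2 at 0.078 ± 0.028 (adjusted p = 0.0331, positive in 17). The calcium pump, the calcium store, troponin I, a light chain and the minor heavy chain were thus called. Myl3 had 0.059 ± 0.028, Tnnc1 0.037 ± 0.029, Tnnt1 0.013 ± 0.028 and Tpm3 0.012 ± 0.026, none of which passed the test. Within the lower identifier range 3 of the 5 were called, Myl2 and Myh7b being lost, in a test that called 2806 of 16348 genes. In the 69 animals of the upper range edgeR called 0 members and 365 of 16600 genes, with 3 members at an unadjusted p under 0.05.

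Among the other slow-fibre genes, 5 were higher and 1 lower on 44% fat, with a median of 0.12. Those with the largest changes were Ankrd2 (0.31 ± 0.063) and Csrp3 (0.24 ± 0.078), which encode stretch-sensing proteins of the sarcomere, and Lmod2, an actin nucleator (0.28 ± 0.030). Of the regulators, 5 were higher and 0 lower. Esrrb, an oestrogen-related receptor, was at 0.20 ± 0.027, Vgll2 at 0.12 ± 0.034 and Esrrg at 0.079 ± 0.024. Of 15 fast counterparts, 1 was higher and 5 lower. Myh2 was the one that was higher, at 0.14 ± 0.034, while Pvalb, the calcium buffer of fast fibres, was at -0.070 ± 0.019 and Casq1 at -0.060 ± 0.017. Of 5 adipocyte markers 3 were higher and 2 lower on 44% fat, with a median log2 fold change of 0.23, while their summed medians were 85.3 CPM on 10% and 74.3 CPM on 44% fat. Of 4 endothelial markers 2 were higher and 0 lower, with a median log2 fold change of 0.068, close to the 0.068 of the members, and summed medians of 139 and 144 CPM. The part of these cells in the members' changes was not tested.

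Metformin-treated animals were compared with untreated ones over both sexes and diets. The Myh7 share showed no difference here either: the log2 ratio was 0.0041 ± 0.027 (SE) higher with metformin (211 and 353 animals, two-sided permutation p = 0.882, adjusted 0.882), with a 95% interval from -0.049 to 0.058. Of the members, 1 was called, in a test that called 19.4% of 17740 genes and 8.34% as higher. This was Myh7b, at 0.094 ± 0.035 (adjusted p = 0.0418), positive in 13 of 20 strains. Its medians were 7.06 and 7.37 CPM in treated females on 10% and 44% fat, against 6.64 and 6.92 CPM in untreated ones. In males the medians were 4.23 and 5.09 CPM with metformin and 4.43 and 4.9 CPM without, so that on 10% fat the treated males had the lower median. The call was lost in 4 ways: in each identifier range alone (0.092 and 0.082, adjusted p = 0.111 and 0.863), without the range term (0.043, adjusted p = 0.363) and with the transcript length index described below as a covariate (0.065, adjusted p = 0.163). The lower-range fit called 3900 of 17892 genes. The upper-range fit called 1 of 17683 genes, so the missing call there says little about Myh7b. The other members ran from -0.048 ± 0.026 for Myl3 to 0.049 ± 0.030 for Myh7. Of the fast counterparts, 3 were higher and 1 lower with metformin, and the changes were small, with Mybpc2 at 0.080 ± 0.014, Myh1 at -0.080 ± 0.022 and Myh4 at 0.059 ± 0.014. Of the other slow-fibre genes 1 was higher (Smpx, 0.045 ± 0.013) and 1 lower (Mybpc1, -0.056 ± 0.017). Of the regulators 3 were higher and 2 lower, among them Ppargc1a, a coactivator of mitochondrial genes, at -0.14 ± 0.043.

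The remaining interactions called 0 of the 10 members by edgeR. At an unadjusted p under 0.05 there were 0 for diet with sex, 0 for diet with strain, 1 for metformin with diet, 2 for metformin with sex and 2 for metformin with strain. These tests called 0.568%, 4.13%, 0.0902%, 3.12% and 11.6% of all genes, in the same order. With limma voom 0 members were called in each. The member nearest to a call was Myh7b in metformin with strain (adjusted p = 0.0908), and next was Tnni1 in metformin with sex (-0.13 ± 0.053, adjusted p = 0.137). For the main heavy chain, Myh7, the difference of the diet effect between males and females was 0.0072 ± 0.068, with a 95% interval from -0.126 to 0.140.

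The spread was then divided by source. Sex took the largest part of the variance of Myh7, 42.1% (omega squared of log2 CPM in untreated animals), strain took 22.7%, and diet took none that could be measured (-0.0655%). Over the members the medians were 35.3% for sex, 27.5% for strain and 0.44% for diet, against 1.58%, 15.4% and 0.0717% over all genes. Each member's share for sex was at or above the 95 percentile of all genes, while shares for strain ran from the 55.6 percentile for Myh7b to the 84.1 percentile for Myl3. Myl3, with 38.4% for strain and 21.8% for sex, was the member most divided by strain. Diet took most in Casq2 (2.83%) and Tnni1 (1.64%). After the additive terms for strain, sex, diet and range, the residual SD on log2 CPM was smallest for Atp2a2 (0.260) and largest for Myh7b (0.443), which also has the lowest counts. For Myh7 it was 0.391. Among genes of similar level, within 1 log2 unit, these spreads stood at the 84.3 percentile for Atp2a2 and between the 91.8 and 96.2 percentile for the other members. This residual still holds the differences of the sex effect between strains, and it may hold differences of age, which the labels do not give.

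The members varied together from animal to animal. After strain, sex, diet and range were removed, the 45 pairs had correlations of residual log2 CPM from 0.221 to 0.946 with a median of 0.719 over the untreated animals (236 females and 233 males), given as a description. The animals share no library, but both genes of a pair come from the same one. The 6 genes Myl2, Myl3, Tnnt1, Tnni1, Tnnc1 and Tpm3 formed the tightest group, with r from 0.782 to 0.946, the last between Tnnc1 and Tpm3. Myh7 was closest to Atp2a2 (0.828) and Myh7b (0.745), and had 0.646 to 0.722 with those 6 genes. Casq2 stood apart, with 0.221 to 0.622.

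The 2 sets differ in transcript length. The 6 tightly correlated genes have longest transcripts of 721 to 2233 nucleotides, while those of Myh7, Myh7b and Atp2a2 have 6230, 6163 and 4486. A library index of long against short transcripts was therefore computed from genes outside all lists, as the median centred log2 CPM of 1274 genes with transcripts of at least 6000 nucleotides minus that of 330 genes with at most 1000. The index ran from -1.60 to 0.465 in untreated animals, with medians of 0.0392 in females and 0.000848 in males. The residuals of Myh7b, Myh7 and Atp2a2 correlated with it at 0.398, 0.376 and 0.250, those of the 6 shorter genes at -0.172 to -0.228, and that of Casq2 at -0.00971. With the index in the model, the correlations of Myh7 with the 6 genes rose to between 0.797 and 0.886, and the median over 45 pairs was 0.818. Casq2 stayed at 0.487 with Myh7 and at 0.246 with Myh7b. The sex differences kept their size, with Myh7 at -0.81 and Tnnc1 at -0.72, and the same 5 members were called for diet. The index was chosen after the correlations had been seen, and what it stands for was not tested.

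**Figure D5:**
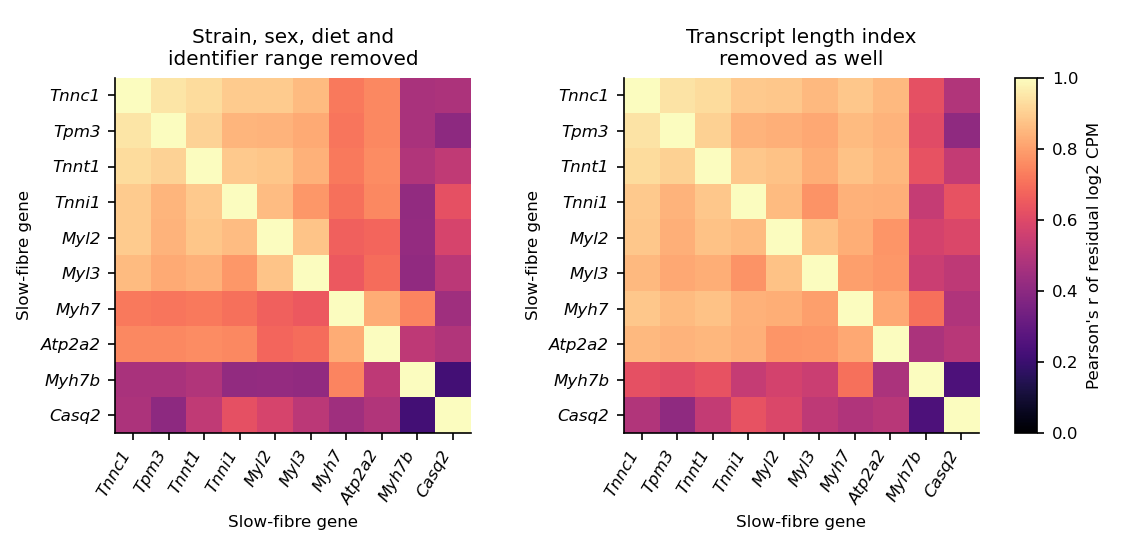
Pearson's r of residual log2 CPM (colour) between pairs of the 10 slow-fibre genes over the untreated animals, with strain, sex, diet and identifier range removed (left) and with the transcript length index removed as well (right). The row of Myh7 brightens from the left to the right panel, where it has r of 0.797 to 0.886 with the 6 genes at the top left, and Casq2 stays dark in both.

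Other genes were ranked by likeness to Myh7 where their mean log2 CPM was 1 or more. Symbols with the pattern of a clone or predicted-gene name were left out. Among these 10098 genes Myh2, the heavy chain of intermediate fibres, was most like Myh7 in its residuals (r = 0.675). Xpo4 (0.629), Nnt (0.606), Myom3 (0.579), Homer2 (0.575), Limch1 (0.571), Akap9 (0.561), Utp20 (0.555), Mybpc1 (0.551) and Huwe1 (0.542) followed. Of these, Myom3 encodes an M-band protein of the sarcomere, Mybpc1 the slow myosin-binding protein C and Nnt a mitochondrial transhydrogenase. Huwe1, Akap9 and Homer2 have longest transcripts of 14579, 13123 and 10982 nucleotides. With the index in the model the r of Huwe1 was 0.443, that of Akap9 0.449 and that of Homer2 0.526. Xpo4, with 8680 nucleotides, had 0.544 with the index, and Mybpc1, with 3922, had 0.483. Nnt, with 3464 nucleotides, had 0.575 and Myh2 had 0.614. The lowest values were those of Tbc1d20 (-0.494), Gpx1 (-0.476), Ormdl3 (-0.465), Fkbp1a (-0.464) and Akt2 (-0.452), which became -0.400 to -0.297 with the index. Casq2, the member least like Myh7, had 0.448.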

How the data were processed

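Gastrocnemius RNA was measured in 352 female and 351 male mice. The deposited values were estimated counts per gene, which the authors made with EMASE after alignment to a transcriptome of the founder strains and deposited as whole numbers. DESeq2 and GRCm38 are named in the submitters' processing notes. The deposited variance-stabilised values were not used. Groups were taken from the labels. The 10 members and all gene lists were chosen with earlier results of these data known. The genes named from each list are the 3 with the largest absolute log2 fold change among those called.

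Counts were tested with edgeR 4.0.16 (quasi-likelihood, TMM; R 4.3.3). The 16384 genes tested in the untreated animals and 17740 in all animals had passed edgeR's filter on low counts. Models held strain, sex, diet, identifier range and, over all animals, treatment. P-values were adjusted by Benjamini-Hochberg with a threshold of 0.05. Ratios of Myh7 to fast heavy chains were compared within strata by permutation with 100000 resamples. CPM used TMM library sizes. Only the edgeR fit of diet was tested on simulated data. Alternatives were DESeq2 1.42.0, limma 3.58.1 (voom), other size factors and filters, each identifier range, and leaving out doubtful libraries or each strain in turn. Limma-trend and the transcript length index were chosen after seeing the data. Among 1404 pairs of libraries of 1 strain, sex, diet and treatment, 0 held identical values. Each library is 1 animal. Intervals on counts cover counting error only.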

Additional observations from a re-analysis of the deposited data

Results flagged for a closer look

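The difference between the sexes varied between strains in a test of the interaction (edgeR quasi-likelihood, Benjamini-Hochberg adjustment over 16384 genes) for each of the 10 members. The adjusted p was 3.79e-09 for Myh7, 1.72e-09 for Myl2, 4.45e-08 for Myl3, 1.88e-09 for Tnnt1 and 1.24e-07 for Tnni1. It was 4.33e-10 for Tnnc1, 3.2e-07 for Atp2a2, 0.00103 for Myh7b, 4.03e-08 for Casq2 and 9.2e-10 for Tpm3. All members were lower in males in 20 of 20 strains, so strains differed in size and not in direction.

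Of 76 combinations of strain, sex and diet with 4 to 10 untreated animals, 2 held an animal whose Myh7 share lay far from the others by Dixon's outlier test. Chance gives this in about 1 in 20 groups, so 2 of 76 is no more than chance gives. A male of (CC002/UncJ x CC043/GeniUncJ)F1 on 44% fat had 0.511%, where the nearest animal had 0.780% and the highest 0.880%. A female of (CC002/UncJ x CC075/UncJ)F1 on 44% fat had 2.84%, where the nearest had 1.31% and the lowest 1.17%.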

How the results depend on the processing

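All 10 members were called lower in males under each of 12 alternatives, and the interaction of sex and strain was called for all 10 under each of 4. For diet, 3 members were called in the lower identifier range alone and 0 in the upper range alone, which holds fewer animals. These fits called 2806 of 16348 and 365 of 16600 genes. Limma voom lost Myh7b for diet (adjusted p = 0.0905). For metformin, 0 members were called in the lower range (3900 of 17892 genes called), 0 in the upper range (1 of 17683) and 0 with the transcript length index (3141 of 17740). Without the range term, where 4746 of 17740 genes were called, Myl3 was called by edgeR in place of Myh7b (-0.080, adjusted p = 0.00726). The cause was not tested.

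Values near 0 changed sign. For diet, Myh7 was at 0.066 in the upper range and 0.003 without libraries against their labels. For metformin, Tnnt1 was at 0.002 with DESeq2's size factors, 0.001 with a minimum of 5 CPM, 0.004 in the upper range, 0.005 without libraries against their labels, 0.002 without those with high liver markers, 0.001 with DESeq2, 0.001 with voom, 0.0 with limma-trend and 0.013 with the index. Myl2 was at 0.002 in the lower range, 0.001 without libraries against their labels and 0.011 with the index. Tnnc1 was at 0.006 and Atp2a2 at 0.019 in the upper range, and Tnnc1 was at 0.002 with the index. Myh7 was at -0.001 without the range term. Casq2 was at -0.001 without libraries against their labels, -0.001 without those with high liver markers and -0.003 with limma-trend. The metformin difference of the Myh7 share was -0.00575 in the upper range, -0.0243 with the range left out of the strata, -0.00146 without libraries against their labels and -0.00253 without those with high liver markers. Leaving out each strain in turn, it ran from -0.00918 to 0.0144, the diet difference from 0.00421 to 0.0351 and the sex difference from -0.962 to -0.877. No paired analysis was possible because all animals carry the same replicate number. Limma on the authors' variance-stabilised values was not run.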
